A study of Mus musculus with 4 samples.

Results

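The 10 genes described here are transcripts that FOXO transcription factors are known to induce in resting or starved cells, and that act on growth signalling, the cell cycle, redox balance or protein turnover. They were chosen by name (Sesn1, Sesn3, Pik3ip1, Irs2, Txnip, Ccng2, Cited2, Btg1, Ddit4 and Fbxo32) among the 40481 genes of the deposited count table. Each name matched 1 gene, and all 10 passed the filter on low counts that left 14863 genes for testing.

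The cells were mouse type 1 innate lymphoid cells (ILC1s), which resemble natural killer cells but reside in tissue, selected by the integrin CD49a and profiled by RNA sequencing. All 4 libraries came from mice homozygous for a floxed Inpp4b allele. The 2 control libraries, numbered 1 and 2, carried no further allele (Inpp4b flox/flox), and the 2 libraries labelled knockout, numbered 3 and 4, came from mice that also carried Ncr1-iCre (Ncr1-iCre Inpp4b flox/flox) and are called the iCre libraries. This Cre is active where Ncr1, the gene of the receptor NKp46, is expressed, so other cells in a sort would keep the allele. Liver is given as the tissue of control library 1, and the cell type alone for the other 3. The sources used here give no age, sex, strain or number of animals per library. Nothing says that libraries of a group came from separate animals, so the p-values reflect differences among these libraries that may be technical.

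FOXO factors enter the nucleus when AKT is inactive and switch on genes of quiescence, stress resistance and catabolism. AKT, which is recruited by the lipids PI(3,4,5)P3 and PI(3,4)P2, phosphorylates FOXO proteins and holds them in the cytoplasm, so that higher AKT activity is known to lower the transcripts of these targets and lower AKT activity to raise them. INPP4B removes a phosphate from PI(3,4)P2. In lymphocytes FOXO1 is known for maintaining quiescence, homing receptors and the interleukin-7 receptor. The series asks whether INPP4B sustains ILC1s through AKT. Whether these 10 transcripts moved together, and in which direction, is the comparison made here.

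Library totals ranged from 42380840 to 54878210 counts. Inpp4b itself stood at 78.7 and 106.5 CPM (the share of counts in a library after scaling by TMM) in controls 1 and 2 and at 142.5 and 86.0 CPM in iCre libraries 3 and 4. Its log2 fold change was 0.30 (± 0.28 SE, adjusted p = 0.828 by edgeR). The table sums all exons, and the sources used here do not name the floxed exons, so this count does not check a deletion of part of the gene. All 14 ILC1 markers looked up were detected, with a summed level of 10310 to 11300 CPM over the 4 libraries, 0 past the edgeR threshold, and 1 higher and 1 lower at a p under 0.05 before adjustment. The lower one was Ncr1, the gene whose expression drives the Cre, at 1672 and 1772 CPM without iCre and 1202 and 1077 CPM with it (-0.60 ± 0.14 SE on the log2 scale, 95% interval -0.92 to -0.27, adjusted p = 0.28 by edgeR and 0.0294 by DESeq2). Markers of other cells were present too. Over the 4 libraries, B and plasma cell markers summed to 12.3 to 16.3 CPM and endothelial and stellate cell markers to 58.0 to 81.9 CPM. ILC2 and ILC3 markers summed to 366.1 to 458.8 CPM. Markers of monocytes, macrophages and dendritic cells summed to 1036 and 1172 CPM in controls and to 3091 and 3693 CPM in the iCre libraries. Of 15 tested, 7 were higher at an edgeR adjusted p under 0.05, 11 higher before adjustment and 10 called higher by DESeq2. Among all tested genes these shares were 0.141%, 4.48% and 1.85%, and 5.17% were lower before adjustment. The same shares stand beside the counts of the other marker lists. None of the 16 listed was at 0 counts in all libraries. T cell markers summed to 2463 and 2426 CPM without iCre and 2954 and 4008 CPM with it. Most of this sum came from Cd3g, Trbc1 and Trbc2, at 1469, 442.9 and 445.8 CPM in control library 1. In that library Cd3d and Cd3e were at 21.4 and 26.5 CPM and Trac at 7.31 CPM. The sum is therefore not a measure of T cell content. Of 11 tested, 1 was higher by edgeR (Trac), 6 higher before adjustment and 4 called higher by DESeq2 (Cd3d, Cd3e, Trac and Cd8a). The fitted log2 fold change was below 0 for 3: Trbc1 (-0.38), Lef1 (-0.10) and Cd8b1 (-1.07). None of the 13 listed was at 0 in all libraries. Cd5 had 0, 1, 0 and 19 counts in libraries 1 to 4, and Cd6 had 6, 1, 8 and 1. Trac, the constant gene of the T cell receptor alpha chain, stood at 7.31 and 5.67 CPM without iCre and 85.1 and 200.9 CPM with it. Markers of conventional NK cells summed to 250.8 and 195.3 CPM without iCre and to 277.3 and 577.8 CPM with it (327.5 CPM of the last from Klra1 alone), with 0 of 11 tested past the edgeR threshold, 3 higher at a p under 0.05 before adjustment, and 1, Klra1, called higher by DESeq2. Sums in libraries 1 to 4 follow for the remaining lists. Hepatocyte markers were at 241.3, 134.1, 244.7 and 249.6 CPM, and Kupffer cell markers at 28.9, 20.5, 54.6 and 52.8 CPM. Neutrophil markers were at 102.6, 97.6, 250.1 and 168.1 CPM, and erythroid and platelet markers at 440.8, 304.4, 262.6 and 927.2 CPM. No gene of these lists passed the edgeR threshold, while DESeq2 called Hp, C1qb, Mmp8 and Mmp9 higher and Itga2b lower. In such bulk libraries fewer cells of a type and less RNA per cell cannot be told apart.

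The 10 targets lay in both directions, and none of them passed the test. Ddit4 was 1.89-fold higher in the iCre libraries, Fbxo32 was lower at 0.634 of the control level, and the other 8 lay between them. The fitted log2 fold change was above 0 for 4 genes (Ddit4, Irs2, Cited2 and Txnip), where 48.7% of all tested genes were, and below 0 for 6 (Sesn1, Btg1, Pik3ip1, Sesn3, Ccng2 and Fbxo32). By edgeR's quasi-likelihood test with Benjamini-Hochberg adjustment over all genes tested, 0 of the 10 passed an adjusted p of 0.05, where 0.155% of all genes did (0.141% higher and 0.0135% lower). Without adjustment 2 (Ddit4 and Fbxo32) had a p under 0.05, against 9.65% of all genes. DESeq2 called 1 of the 10, Ddit4, against 3.21% of all genes, and limma-voom called 0.

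**Figure D1:**
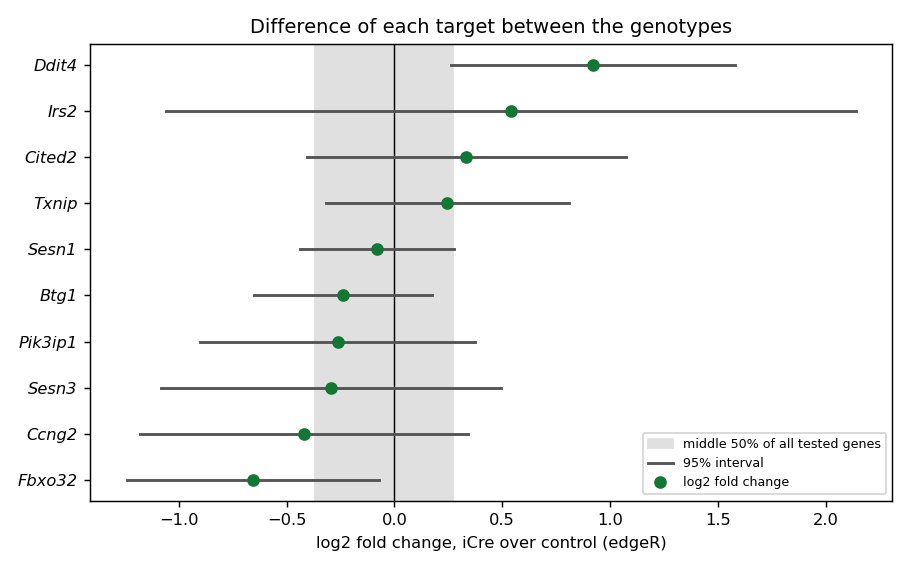
Log2 fold change of each target (iCre over control libraries, edgeR, n = 2 each) as a point, with its 95% interval as a line and the middle 50% of all tested genes as a grey band from -0.37 to 0.27. The intervals of Ddit4 and Fbxo32 lie on opposite sides of 0, and those of the other 8 genes hold 0.

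The median log2 fold change of the 10 genes was -0.161, beside -0.014 over all genes tested. It was -0.06 without control library 1 and -0.012 without control library 2. Their median distance from 0, regardless of sign, was 0.31 on the log2 scale, which is also the value over all tested genes (0.31). Values of the control and iCre libraries did not overlap for 6 of the 10 genes, 3 higher (Ddit4, Irs2 and Cited2) and 3 lower (Fbxo32, Ccng2 and Sesn3). Among all tested genes 40.2% did not overlap, 19.5% higher and 20.8% lower. With library totals alone as the scale, 6 genes again did not overlap, but Cited2 then overlapped and Btg1 was separate and lower. An exact permutation test of 2 libraries against 2 cannot give a two-sided p below 0.333.

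**Figure D2:**
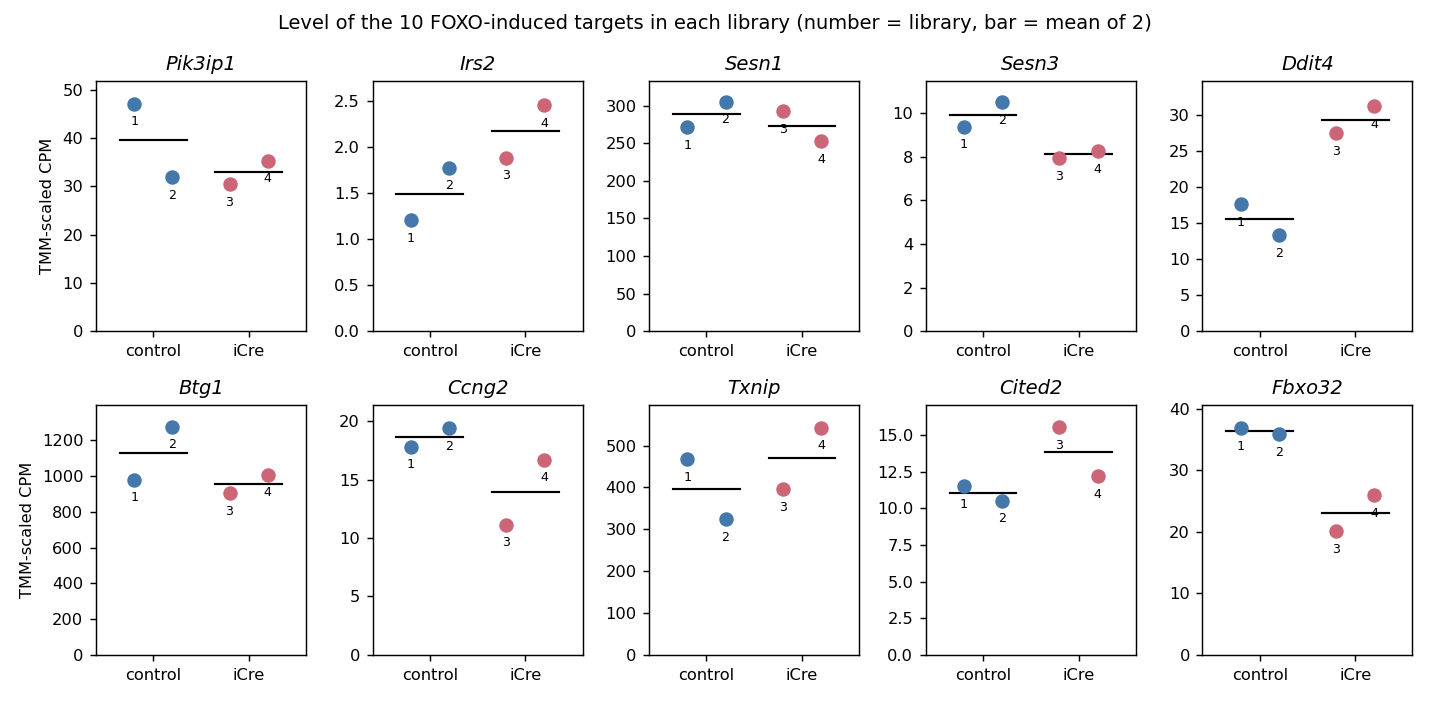
Level of each target in every library, in CPM scaled by TMM factors on a linear axis from 0, with the library number under each point and a bar at the mean of the 2 libraries of a group. Ddit4 and Fbxo32 show groups that stand clear of each other in opposite directions, while the groups of Sesn1, Pik3ip1, Btg1 and Txnip overlap.

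Levels spanned a wide range. Per kilobase of annotated exon, and averaged over the 4 libraries, Btg1 was the most abundant of the 10 at 197 CPM per kilobase, with libraries from 171 to 242, and Txnip followed at 139 (104 to 174). Their ranges overlapped, although Btg1 was above Txnip within each of the 4 libraries. Sesn1 came next at 70.5 CPM per kilobase and stood clear of its neighbours on both sides. Ddit4 (12.8) and Pik3ip1 (8.47) overlapped, as did Cited2 (5.06) with Fbxo32 (4.25) and Fbxo32 with Ccng2 (2.98). The lowest levels per kilobase were those of Sesn3 (0.59) and Irs2 (0.29), each apart from its neighbours.

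Among the members that feed back on PI3K and mTORC1, Ddit4 was higher at an unadjusted p under 0.05, and the intervals of the other 4 held 0. Ddit4 (ENSMUSG00000020108, mm10 chromosome 10, 59949669 to 59951834, minus strand) encodes REDD1, an inhibitor of mTORC1 that acts through the TSC complex and is induced by hypoxia, glucocorticoids and energy stress as well as by FOXO. It stood at 17.7 and 13.4 CPM in control libraries 1 and 2 and at 27.5 and 31.3 CPM in libraries 3 and 4. Both iCre libraries thus lay above both controls. The means were 15.5 ± 3.05 CPM (SD, n = 2) without iCre and 29.4 ± 2.66 CPM (SD, n = 2) with it. Its log2 fold change was 0.92 (SE 0.27, 95% interval 0.26 to 1.58, adjusted p = 0.379 by edgeR). DESeq2 gave 0.94 with an adjusted p of 0.0438. Leaving out each library in turn moved the edgeR value between 0.74 and 1.14. Ddit4 was higher in the same libraries in which markers of myeloid cells (15 of 15 tested above 0, median log2 fold change 2.45) and of T cells (8 of 11 above 0, median 1.22) were higher, and the part of those cells in its level was not tested.

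Pik3ip1 (chromosome 11, 3330401 to 3342971) encodes a transmembrane protein that binds and restrains the catalytic subunit of PI3K. It stood at 47.1 and 31.8 CPM in controls 1 and 2, then 30.4 and 35.3 CPM in iCre libraries 3 and 4. Control library 1 was the high value, and the other 3 libraries lay close together. The log2 fold change was -0.26 (± 0.26 SE, adjusted p = 0.85 by edgeR), and it turned to 0.05 without control library 1.

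Irs2 (chromosome 8, 10984681 to 11008458), the adaptor that links insulin, IGF and interleukin-4 receptors to PI3K, had the lowest counts of the 10, with 70 and 84 counts in controls, then 81 and 127 counts in libraries 3 and 4. On the scaled level these were 1.21 and 1.78 CPM without iCre and 1.89 and 2.45 CPM with it. The groups did not overlap, but the control library 2 and iCre library 3 values were nearly equal. The log2 fold change of 0.54 had the widest error of the 10 genes (± 0.66 SE, adjusted p = 0.903 by edgeR), with an interval from 0.48-fold to 4.41-fold. It was 0.29 without control library 1 and 0.85 without control library 2.

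The sestrins Sesn1 and Sesn3 encode stress-induced proteins that hold back mTORC1 through the GATOR complexes. Sesn1 (chromosome 10, 41809935 to 41908424) stood at 271.7 and 305.5 CPM in controls 1 and 2, then 292.4 and 253.2 CPM in iCre libraries 3 and 4, with overlapping groups. Its log2 fold change of -0.08 (± 0.15 SE, adjusted p = 0.95 by edgeR) had the narrowest interval of the 10, from 0.737-fold to 1.21-fold. It was 0.01 without control library 2. Sesn3 (chromosome 9, 14275067 to 14333101) stood at 9.36 and 10.5 CPM without iCre and 7.93 and 8.25 CPM with it. Both iCre values were below both controls, but the log2 fold change of -0.29 (± 0.33 SE, adjusted p = 0.882 by edgeR) was smaller than its error.

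Both members known for growth arrest had fitted values below 0, with intervals that held 0. Btg1 (chromosome 10, 96617006 to 96622809), an antiproliferative gene of the BTG and TOB family that is abundant in resting lymphocytes, stood at 980.1 and 1276 CPM in controls 1 and 2, then 902.6 and 1008 CPM in iCre libraries 3 and 4. Library 4 lay above control library 1, so the groups overlapped. The log2 fold change was -0.24 (± 0.17 SE, adjusted p = 0.752 by edgeR), and it shrank to -0.03 without control library 2. Ccng2 (chromosome 5, 93267257 to 93276231), the gene of the atypical cyclin G2, stood at 17.8 and 19.4 CPM without iCre and 11.1 and 16.7 CPM with it. The controls were close to each other, and iCre library 3 alone lay far below them. The log2 fold change of -0.42 (± 0.31 SE, adjusted p = 0.772 by edgeR) was -0.18 without iCre library 3 and -0.77 without iCre library 4.

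The remaining members did not share a direction. Fbxo32 (ENSMUSG00000022358, chromosome 15, 58175879 to 58214932, minus strand) encodes atrogin-1, the substrate receptor of a ubiquitin ligase known as a FOXO target in muscle atrophy. It stood at 36.8 and 35.9 CPM in controls 1 and 2, then 20.1 and 25.9 CPM in iCre libraries 3 and 4. The controls agreed closely, and both iCre values lay well below them. The means were 36.3 ± 0.656 CPM (SD, n = 2) without iCre and 23.0 ± 4.12 CPM (SD, n = 2) with it, and the log2 fold change was -0.66 (SE 0.24, 95% interval -1.24 to -0.07, adjusted p = 0.469 by edgeR). DESeq2 gave -0.64 with an adjusted p of 0.226. Leaving out each library in turn moved the edgeR value between -0.88 and -0.51. Fbxo32 was lower in the same libraries in which summed myeloid and T cell markers were higher and Ncr1 was lower (-0.60). Of the 14 ILC1 markers, 8 were above 0 and 6 below, with a median of 0.05. The part of the cell mixture in the level of Fbxo32 was not tested.

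Txnip (chromosome 3, 96557957 to 96561883) encodes an arrestin-like protein that binds thioredoxin and limits glucose uptake. It stood at 467.7 and 324.4 CPM in controls 1 and 2, then 396.5 and 542.2 CPM in iCre libraries 3 and 4. Each group held a high and a low library, and the difference inside each group exceeded that between the means. The log2 fold change was 0.24 (± 0.23 SE, adjusted p = 0.836 by edgeR), and it was -0.03 without iCre library 4. The antisense gene Gm15441 shares 606 exon bases with Txnip and had 67 to 182 counts per library, beside 15327 to 28058 counts for Txnip. Reads in that stretch cannot be told apart without the strand setting of the counting.

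Cited2 (chromosome 10, 17723218 to 17725674), a transcription cofactor gene whose protein binds CBP and p300 and limits the hypoxia response, stood at 11.5 and 10.5 CPM in controls 1 and 2, then 15.5 and 12.2 CPM in iCre libraries 3 and 4. Library 3 was the high value, and library 4 lay just above the controls. The log2 fold change was 0.33 (± 0.31 SE, adjusted p = 0.828 by edgeR). It was 0.13 without iCre library 3.

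**Figure D3:**
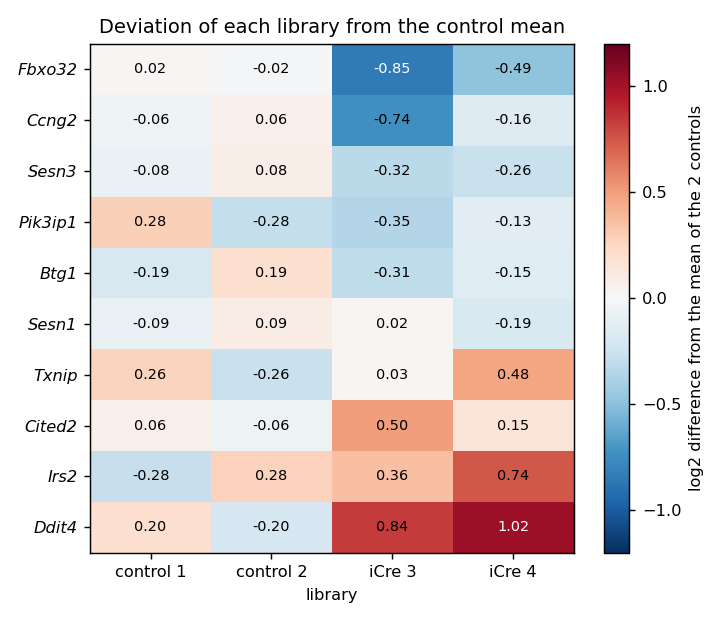
Log2 difference of each library (columns) from the mean of the 2 controls for each target (rows), red above and blue below, with the value in each cell. Library 3 holds 5 targets above and 5 below the control mean, and library 4 holds 4 above and 6 below.

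The split between Ddit4 and Fbxo32 does not depend on how libraries are scaled, since a ratio inside a library cancels the scale. The log2 ratio of Ddit4 to Fbxo32 counts was -1.06 and -1.42 in controls and 0.45 and 0.27 in the iCre libraries. It was thus below 0 in both controls and above 0 in both iCre libraries. Of the 45 pairs among the 10 genes, 30 had ratios that did not overlap between the groups. The pair of Ddit4 and Fbxo32 holds the extremes of the 10 genes and was chosen after their values were seen, so the ratio is a description. Libraries of one genotype also differed from each other. Over the 10 genes, the median log2 distance regardless of sign was 0.28 between the controls and 0.28 between the iCre libraries. These are distances between single libraries, while the 0.31 between genotypes compares groups of 2, so the sizes cannot be set directly side by side. In iCre library 4, 8 of the 10 genes were above iCre library 3, and in control library 2, 5 of the 10 were above control library 1.

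Sequence upstream of the start sites was examined for the FOXO binding motif GTAAACA on either strand. RefSeq windows of 250 bases before the start (GRCm38.p6, the assembly of mm10) were at hand for 9 of the 10 genes, Fbxo32 being the exception. The motif was in the windows of 2 of the 9, Txnip and Btg1, and in those of 3.54% of the 27025 genes with a window. These windows are shown because they hold the motif, in capitals, 5′ to 3′ along the gene's strand. The Txnip window is chr3:96557707-96557956 (plus strand), which also lies within the antisense gene Gm15441, and the motif occupies positions -121 to -115 before the start. The Btg1 window is chr10:96616751-96617000 (plus strand), with the motif on the opposite strand at positions -204 to -198.
Txnip: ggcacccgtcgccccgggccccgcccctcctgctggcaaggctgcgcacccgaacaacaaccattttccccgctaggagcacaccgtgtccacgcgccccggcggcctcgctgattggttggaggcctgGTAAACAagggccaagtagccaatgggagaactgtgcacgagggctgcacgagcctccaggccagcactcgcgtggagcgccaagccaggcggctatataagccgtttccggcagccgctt
Btg1: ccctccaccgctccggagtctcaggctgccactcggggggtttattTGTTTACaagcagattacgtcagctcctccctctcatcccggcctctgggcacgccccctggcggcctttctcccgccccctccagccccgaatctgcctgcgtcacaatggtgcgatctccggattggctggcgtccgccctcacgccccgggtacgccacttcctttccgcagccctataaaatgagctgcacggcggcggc
The genes with the motif, Txnip and Btg1, had fitted log2 fold changes of opposite sign, 0.24 and -0.24, and neither passed the test. The E-box CACGTG, a palindrome that reads the same on both strands, was in the windows of Irs2 and Cited2 and of 6.86% of all genes. A match is a description of the letters and not a bound site, and the lack of one in the windows of the other genes says nothing of FOXO binding elsewhere.

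The FOXO factors themselves showed no difference that passed the test. Foxo3 stood at 787.5 and 1060 CPM in controls 1 and 2, then 597.0 and 756.8 CPM in iCre libraries 3 and 4. Both iCre values were below both controls (-0.45 ± 0.20 SE on the log2 scale, adjusted p = 0.547 by edgeR). Foxo1 stood at 27.5 and 23.7 CPM without iCre and 26.2 and 26.3 CPM with it, with a log2 fold change of 0.03 (± 0.24 SE, adjusted p = 0.996 by edgeR). Foxo4 was at 3.16 and 4.15 CPM without iCre and 3.35 and 4.37 CPM with it, and Foxo6 did not pass the filter on low counts. Of 10 genes of AKT, SGK and their upstream kinases, 0 passed the edgeR test or had an unadjusted p under 0.05, and DESeq2 called 0. Their median was -0.19. Sgk1, a kinase that also phosphorylates FOXO, had the smallest p, at 15.4 and 18.7 CPM without iCre and 23.9 and 25.5 CPM with it (edgeR adjusted p = 0.586), followed by Sgk3 (edgeR adjusted p = 0.586).

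Of 44 other genes known as FOXO targets, 39 were tested, and none passed the edgeR test. The fitted log2 fold change was above 0 for 27 and below 0 for 12, where 48.7% of all tested genes were above 0. The median was 0.12, beside -0.014 over all genes tested. With no adjustment 4 lay higher and 2 lower at a p under 0.05, against 4.48% and 5.17% of all genes, and DESeq2 called 2 higher (Ccr7 and Cdkn1a) and 0 lower, against 1.85% and 1.36%. Among the 10 listed genes of lymphocyte homing and survival, the smallest p was that of Ccr7. Ccr7, a chemokine receptor gene of lymph node homing, had 0 and 1 counts in controls and reached 47 and 41 counts with iCre (adjusted p = 0.312 by edgeR). It was followed by Klf2, a transcription factor gene of lymphocyte quiescence and trafficking, at 1.03 and 0.889 CPM without iCre and 3.16 and 2.80 CPM with it (1.63 ± 0.64 SE on the log2 scale, adjusted p = 0.494 by edgeR). Both genes are also expressed by naive T cells and Ccr7 by dendritic cells. The summed T cell and myeloid markers were higher in the same libraries, and single markers in those lists differed. Lef1, a gene known from naive T cells, had a log2 fold change of -0.10, where Trac had 4.46. In controls Lef1 was at 34.15 and 26.08 CPM and Trac at 7.31 and 5.67 CPM. The level of Lef1 can therefore not be assigned to T cells. In the list that holds dendritic cell genes, H2-Aa, H2-Ab1, H2-Eb1 and Cd74 had 2.78, 2.61, 2.74 and 2.29. There Siglech had 1.54, and Xcr1 and Itgax had 0.18 and 0.11. Itgax was at 479.6 and 492.3 CPM in controls, where Csf1r was at 8.95 and 14.9 CPM. The level of Itgax can therefore not be assigned to dendritic cells. Flt3 had 13 and 2 counts in controls and 0 and 1 with iCre. The part of T cells and dendritic cells in the level of Ccr7 and Klf2 was not tested.

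Within the 13 listed genes of cell cycle, repair and redox balance, Cdkn1a and Cdkn1b, both of which encode inhibitors of cyclin-dependent kinases, lay on opposite sides. Cdkn1a, also a p53 target, was at 2.36 and 2.46 CPM without iCre and 12.3 and 6.51 CPM with it (1.97 ± 0.47 SE on the log2 scale, adjusted p = 0.299 by edgeR). Cdkn1b, the p27 gene and a standard readout of FOXO activity, was at 485.3 and 327.5 CPM without iCre and 259.9 and 211.4 CPM with it (-0.79 ± 0.22 SE on the log2 scale, adjusted p = 0.36 by edgeR). Each pair of groups was separate, as for 40.2% of all tested genes, and neither gene passed the edgeR test. Of the 39 tested other targets, 12 were separate and higher and 5 separate and lower, beside 19.5% and 20.8% of all tested genes. In the list of insulin signalling and metabolism, Trib1, a pseudokinase gene, was at 0.793 and 1.06 CPM without iCre and 3.63 and 2.67 CPM with it, and Pdk1, a kinase gene that holds back pyruvate dehydrogenase, at 12.4 and 14.7 CPM without iCre and 4.70 and 8.52 CPM with it (edgeR adjusted p = 0.466 and 0.494). Pck1, of the same list, was at 106.4, 48.85, 98.1 and 86.5 CPM in libraries 1 to 4. The hepatocyte marker Tat was at 83.3, 33.4, 78.9 and 79.6 CPM there. The part of hepatocytes in the level of Pck1 was not tested. Of the 9 tested genes of autophagy and proteolysis, the smallest p was that of Bnip3l, a mitophagy receptor gene (249.4 and 249.8 CPM without iCre and 303.7 and 309.0 CPM with it, edgeR adjusted p = 0.539), followed by Ulk1 (edgeR adjusted p = 0.732).

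**Figure D4:**
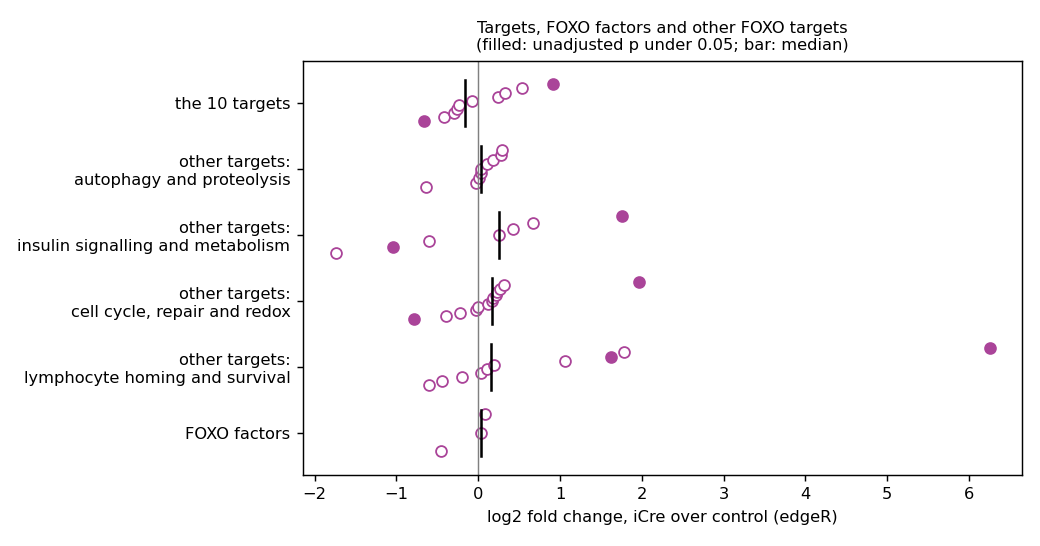
Fitted log2 fold changes (iCre over control libraries) of the FOXO factors, other FOXO targets by role and the 10 targets, one point per tested gene, filled at an unadjusted p under 0.05, with a bar at each median. The medians lie between -0.16 and 0.25, and the point at 6.25 is Ccr7, whose size depends on the 0 and 1 counts in controls.

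Ddit4, Txnip and Sesn1 also answer to signals other than FOXO, and lists of those responses gave 0 genes past the edgeR threshold. Glucocorticoid response genes had a median log2 fold change of 0.21 over 8 genes. Of these, Tsc22d3, which encodes the glucocorticoid-induced leucine zipper, had the smallest p. It stood at 534.4 and 571.1 CPM in controls 1 and 2, then 659.7 and 877.1 CPM in iCre libraries 3 and 4 (0.48 ± 0.17 SE on the log2 scale, adjusted p = 0.464 by edgeR). Of the 8 genes, 6 had a fitted value above 0 and 2 below, Fkbp5 (-0.50) and Per1 (-0.67). The 9 tested hypoxia response genes had a median of 0.10. Pdk1, named above, had the smallest p among them and was lower, and Higd1a (edgeR adjusted p = 0.811) followed. The 7 tested genes of the integrated stress response had a median of 0.14. Sesn2, which encodes the third sestrin, stood at 3.93 and 3.73 CPM in controls 1 and 2, then 9.17 and 6.16 CPM in iCre libraries 3 and 4 (1.0 ± 0.42 SE on the log2 scale, adjusted p = 0.522 by edgeR), where Sesn1 and Sesn3 had values of -0.08 and -0.29. Atf3, a stress-induced transcription factor gene, had 1 and 48 counts in controls, then 99 and 295 counts with iCre (adjusted p = 0.588 by edgeR).

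The 8 tested p53 target genes, a set to which Sesn1 is also known to belong, had a median of 0.14. Apart from Cdkn1a, the smallest p was that of Ccng1, the cyclin G1 gene and a relative of Ccng2, at 105.6 and 93.3 CPM in controls 1 and 2, then 140.9 and 148.8 CPM in iCre libraries 3 and 4 (0.54 ± 0.15 SE on the log2 scale, adjusted p = 0.353 by edgeR). Ccng2 had a value of -0.42. Among arrestin genes related to Txnip and the glucose-sensing factors that induce it, Mlxip, which encodes MondoA, was at 43.0 and 54.5 CPM without iCre and 17.7 and 31.8 CPM with it (-0.98 ± 0.33 SE on the log2 scale, adjusted p = 0.422 by edgeR). Mlxipl, which encodes the related factor ChREBP, had 19 and 1 counts in controls, then 44 and 122 counts with iCre (adjusted p = 0.522 by edgeR). Arrdc4, known to be induced with Txnip by MondoA, was at 10.8 and 4.09 CPM without iCre and 3.72 and 6.69 CPM with it. The groups of both genes overlapped, and their fitted log2 fold changes had opposite signs, -0.51 for Arrdc4 and 0.24 for Txnip.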

How the data were processed

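Raw counts, 1 column a library, are what the authors deposited. The tools named are bcl2fastq, STAR, Subread (with featureCounts) and DESeq2, and the assembly mm10, per the submitters' processing notes. Their roles, the annotation and the strand setting are not given in the sources used here. Total RNA was column-extracted and made into SMARTer low-input libraries, per the labels' protocols. The 276 repeated gene lines, none of them a member's and each with counts identical to the first, were dropped. Replicates differed beyond sampling noise (chi-square per degree of freedom 98.6 in controls and 89.6 in iCre libraries).

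After filterByExpr and TMM scaling, genotype alone was fitted in edgeR 4.0.16 (R 4.3.3) with the robust quasi-likelihood test, two-sided, on 2 residual degrees of freedom. Adjusted p-values are Benjamini-Hochberg over all tested genes, with a threshold of 0.05. Levels are CPM scaled by TMM. Levels per kilobase use the union of GENCODE M21 exons. Fold changes are log2 of iCre libraries over control. Alternatives were other scalings and filters, DESeq2 1.42.0, limma-voom (limma 3.58.1), non-robust edgeR, each library left out and, added later, a replicate block. Presence of iCre and loss of Inpp4b cannot be told apart in this design.

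The members, gene lists and tests were chosen with earlier results of these data known. All members, the FOXO factors and up to 2 genes with the smallest p in each list were named. Others were chosen after their values were seen. One gene of the homing and the conventional NK lists is not reported here, and their counts leave it out. Promoter windows that overlap annotated exons of the gene itself are not shown.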

Additional observations from a re-analysis of the deposited data

How the results depend on the processing

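Over 13 alternatives, 126 of 130 member fold changes kept their direction and their side of the threshold. Of the other 4, Ddit4 passed with DESeq2 (0.94), and 3 turned when 1 library was left out: Pik3ip1 ranged from -0.516 to 0.045 (without control library 1), Sesn1 from -0.209 to 0.009 (without control library 2) and Txnip from -0.031 (without iCre library 4) to 0.532. The count of members past the threshold was 1 with DESeq2 and 0 otherwise. Without 1 library in turn the members' median ranged from -0.189 to -0.012, a shift of the size of the spread between libraries only when a control was left out. Genes called higher and lower over the whole table, 21 and 2 as reported, were 299 and 264 without a filter on low counts, 40 and 9 with at least 50 counts in 2 libraries, and 278 and 204 with DESeq2. With library totals alone 6 were lower. With 1 library left out they ranged from 0 to 18 higher and from 0 to 2 lower. Genes of the pathway lists past the threshold were 7 without the filter, 4 with DESeq2 and 0 with all other settings. The cause of these differences was not tested. The labels number the libraries 1 to 4, but the names of the deposited columns end in 1 and 2 within each genotype. With that number as a replicate block, an alternative chosen after seeing the data that leaves 1 residual degree of freedom, edgeR called 0 genes in either direction (1709 before adjustment), 0 of the members (2 before adjustment), and gave the members a median of -0.156. Deviations of same-numbered libraries from their group means had a correlation of 0.0709 over tested genes, and they were not treated as pairs. Low counts limit Irs2 and Sesn3 most, and 2 libraries a group limit all 10 genes. Where 1 library was left out, the lone sample of a group was assumed to vary like the other group.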

Other observations

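Genes that respond quickly to stimulation and heat were examined beside the stress targets. Of 13 immediate early and heat shock genes, 10 had a fitted log2 fold change above 0, where 48.7% of all tested genes did. The median was 0.68, with 0 past the edgeR threshold. Hspa1a and Fos, 2 of the 13, were higher at an unadjusted p under 0.05 and were called by DESeq2, and 0 were lower. Among all genes 4.48% were higher before adjustment and 1.85% were called higher by DESeq2. Hspa1a, which encodes an inducible HSP70, stood at 2.0 and 2.18 CPM in controls 1 and 2, then 10.3 and 11.4 CPM in iCre libraries 3 and 4 (2.37 ± 0.39 SE on the log2 scale, adjusted p = 0.166 by edgeR). The other heat shock genes of the list had smaller log2 fold changes, with Hspa1b at 0.68, Hspa8 at 0.10 and Dnajb1 at 0.04. Fos was at 20.8 and 17.7 CPM without iCre and 37.3 and 56.9 CPM with it (1.29 ± 0.28 SE on the log2 scale, adjusted p = 0.276 by edgeR). Junb and Ier2, chosen after their values were seen, split the replicates instead: Junb was at 197.1 and 33.2 CPM in control libraries 1 and 2 and at 121.2 and 57.3 CPM in libraries 3 and 4, and Ier2 at 102.9 and 21.8 CPM without iCre and 62.7 and 29.2 CPM with it.

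None of the relatives of Btg1 passed a test. Btg2 was at 372.8 and 410.2 CPM in controls 1 and 2, then 367.4 and 374.8 CPM in iCre libraries 3 and 4 (-0.08 ± 0.13 SE on the log2 scale, adjusted p = 0.945 by edgeR), and Tob2 at 37.3 and 34.1 CPM without iCre and 38.3 and 38.8 CPM with it (edgeR adjusted p = 0.95). Over the 4 tested genes of the family, 0 passed the edgeR threshold, an unadjusted p of 0.05 or DESeq2.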
